A study of Mus musculus with 16 samples.

Results

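Sorted hair follicle stem cells of eKO mice were compared with those of control mice by bulk RNA sequencing. The comparison rests on 6 libraries, 3 per genotype, of the 16 in the series. The other 10 libraries hold whole back skin, 5 control and 5 eKO, with a labelled age of 8 months. Genes were described where the value was at least 10 in 3 or more of the 6 libraries, which kept 13784 genes of the 56953 rows of the table, 21521 of which had any read. The third-highest value was 10.5 in the genes just inside this limit and 9.998 in those just outside it. Per the labels, all 6 libraries came from C57BL/6 mice and from bulge cells that carried CD34 and α6-integrin and were sorted by FACS. The genotypes are given as control and GRK2 eKO, and the labels name no allele, no Cre driver and no genotype of the controls beyond these words. Each of the 6 labels gives an age of 18 months, whereas the design text of the series gives 8 months for these cells, so the age is not settled here. Sex, the number of mice in a library and whether the 3 libraries of a group came from separate mice are not recorded, so p-values measure the spread between these libraries, which may be technical.

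The bulge is the region of the hair follicle that houses its stem cells. In the resting follicle BMP signals keep these cells quiet, and Wnt signals together with BMP inhibitors wake them, after which their progeny pass through the hair germ to the matrix and form the inner root sheath and the hair shaft. Above the bulge lie the isthmus, the sebaceous gland and the infundibulum, which opens into the epidermis. GRK2, the product of Grk2, is a kinase that tags active receptors of the G-protein-coupled class, after which they bind arrestins and signal less through G proteins. It also acts on Smoothened, which carries the Hedgehog signal.

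Depth ran from 6428488 to 6729777 reads in the control libraries and from 6428584 to 9387378 in the eKO libraries, with eKO 1 the deepest. Values are the authors' normalised reads, that is gene read counts divided by 1 factor per library, and they are not divided by gene length, so levels are compared between libraries and not between genes. The 6 libraries fell apart by genotype on the first principal component, which held 51.8% of the variance, and eKO 1 stood apart from eKO 2 and eKO 3 on the second, which held 17.3%. Across genes, Pearson correlations of log2 values were 0.962 to 0.964 among control libraries, 0.923 to 0.933 among eKO libraries and 0.871 to 0.891 between the groups. A low or zero value does not show absence, since B2m was listed at 0 in all 16 libraries.

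**Figure D1:**
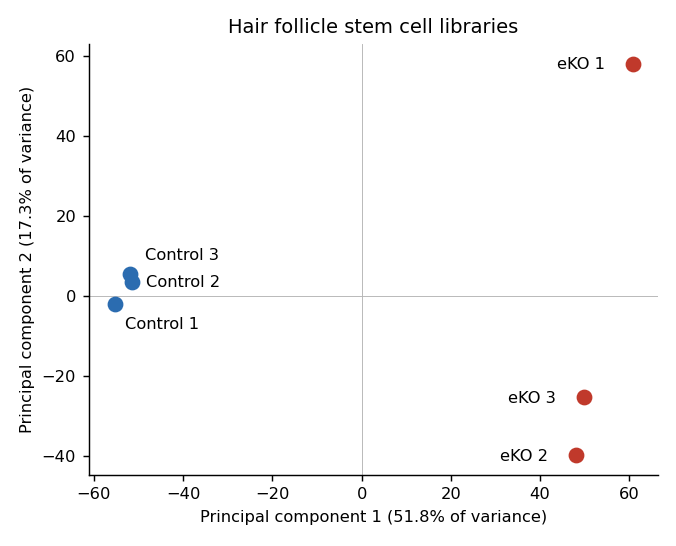
First (51.8% of the variance) and second (17.3%) principal components of log2(value + 1) over the 13784 genes tested, 1 point per library. The 3 control libraries lie together on the left, the 3 eKO libraries lie on the right, and eKO 1 sits apart from the other two eKO libraries along the second component.

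Grk2 itself checks the labels, and it stood at 139, 121 and 144 normalised reads in control 1, 2 and 3 and at 114, 122 and 104 in eKO 1, 2 and 3, the order used for all values that follow. The groups overlapped by 1 library, eKO 2, and the difference did not pass the test (log2 fold change -0.24, SE 0.23, limma adjusted p = 0.501, 95% interval -0.74 to 0.25, two-sided exact permutation p = 0.2, where 3 against 3 libraries allow no less than 0.1). A value per gene does not show single exons, so it does not tell whether a deleted exon was lost. The level of the named gene therefore did not tell the labelled genotypes apart.

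Genotype went with a broad difference across the rest of the transcriptome. Keratins of the compartments around the bulge were higher in eKO, with the infundibulum keratin Krt79 3.77 (SE 0.16) and the suprabasal keratin Krt1 3.19 (SE 0.17) above control on the log2 scale, and so were the lactate carrier Slc16a1, by 2.87 (SE 0.14), and the Wnt inhibitor Wif1, by 2.75 (SE 0.12). The bulge receptor Lgr5, the cytokine receptor Il31ra, the semaphorin receptor Plxna2 and the BMP antagonist Grem1 were lower, with log2 fold changes of -0.94 (SE 0.07), -1.53 (SE 0.08), -2.29 (SE 0.11) and -1.13 (SE 0.09), each from 3 libraries per group. The bulge genes Cd34, Krt15 and Sox9 did not pass the test. By limma on log2(value + 1), 2673 genes, 19.4% of the 13784 tested, passed an adjusted p of 0.05, with 1468 (10.7%) higher and 1205 (8.74%) lower in eKO. The groups did not overlap in 5004 genes, 36.3% of those tested, and 2609 of these were higher and 2395 lower. Changes upward reached further than changes downward: 321 genes rose at least 4-fold and 100 fell at least 4-fold, and at 16-fold the counts were 98 and 14. The share called grew with the level, from 10.5% of genes with a mean under 30 normalised reads to 54.6% of the 269 genes with a mean of 3000 or more, of which 103 were higher and 44 lower. Over all genes tested the median log2 fold change was -0.03. These shares and this median are the background for each gene list described here. The lists were chosen with earlier results of these data known, so a list's share beside the background is a description and not a test. The count of lower genes fell to 537, 561 and 683 without control 1, control 2 and control 3, and the count of all calls to 1540 and 1560 without control 1 and control 2. With scaling by library size alone 1271 were higher and 1537 lower, so that 45.3% of calls were higher, against 54.9%. A call named for a gene held in all 6 fits that left out 1 library, except where the libraries are given beside it. Of those exceptions, Apoe, mt-Cytb, Tmem100, Rspo3, Lyz2, Bhlhe40, Dkk3, Ccnd2, Hhip, Wnt6 and Cldn23 also lost their call under another filter, scaling or tool.

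**Figure D2:**
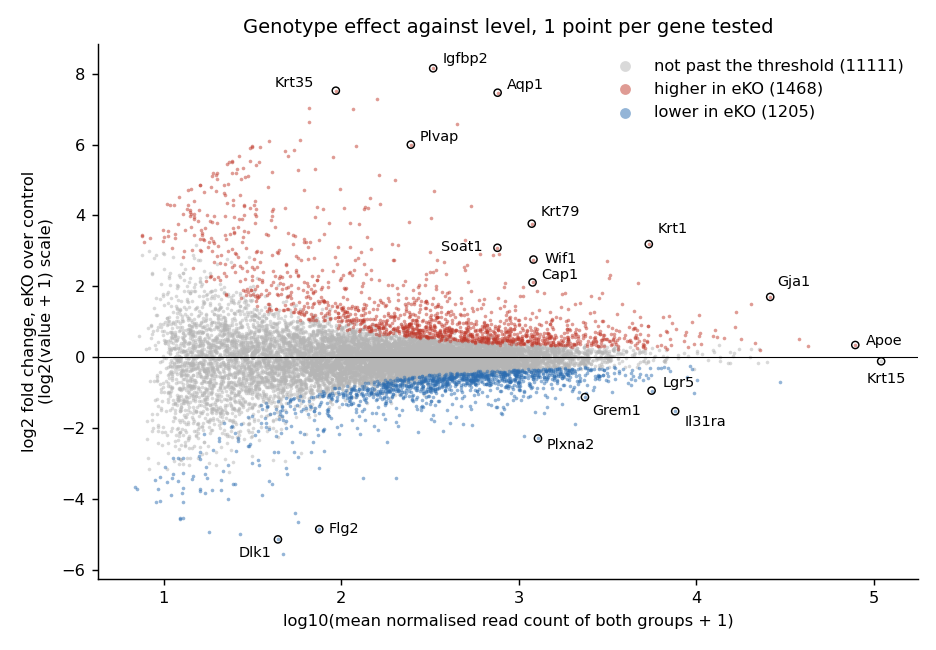
Log2 fold change, eKO over control, on the log2(value + 1) scale (vertical axis) against the log10 of the mean normalised read count (horizontal axis), 1 point per gene tested; red genes (1468) were higher and blue genes (1205) lower by limma at an adjusted p of 0.05. Igfbp2, Krt35 and Aqp1 lie at the top, Flg2 and Dlk1 near the bottom, and Krt15, the gene with the highest value, lies next to 0.

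Among called genes with a mean of at least 100 in the higher group, predicted genes left out, the 10 largest rises were of genes that the control libraries barely held. Igfbp2, a secreted binder of insulin-like growth factors, stood at 0.997, 1.05 and 2.0 in the control libraries, within the floor of 3 reads, and at 709, 634 and 626 in the eKO libraries, which makes it at least 215-fold higher. Krt35, a keratin of the hair shaft, went from 0 in every control library to 227, 162 and 165, at least 60.6-fold higher. Padi3, which modifies proteins of the inner root sheath, rose from 0, 4.21 and 0 to 223, 158 and 308 (log2 fold change 7.003, SE 0.70, limma adjusted p = 2.08e-05). Both genes were thus read in every eKO library at levels that no control library approached. Lrg1, a secreted glycoprotein, stood at 8.98, 7.36 and 8.0 against 1169, 738 and 749.9 (log2 fold change 6.57, SE 0.29, limma adjusted p = 2.66e-08), and B3gnt3, an enzyme that extends sugar chains, was at least 37.7-fold higher at 124, 136 and 84.2. Cytl1, a small secreted protein, was held within 3 reads in each control library and stood at 366, 249 and 336 in eKO, at least 104-fold higher. The other four of these 10, Aqp1, Vwf, Plvap and Ptprb, are expressed by blood vessels and are described with the endothelial markers.

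By the same limits on level and name, the 10 largest falls were led by Flg2 and Pcolce2, and some genes of lower level, given with their lists, fell further. Flg2, a filaggrin-related protein of the cornified layer, stood at 118, 183 and 123 in control and at 16.7, 0 and 5.33 in eKO. Pcolce2, which enhances collagen processing, stood at 127, 69.4 and 117 in control and at 2.27, 5.48 and 4.26 in eKO. Neither overlapped between the groups (Flg2 log2 fold change -4.85, SE 0.82, Pcolce2 -4.40, SE 0.53, limma adjusted p = 0.00125 and 1.03e-04). Skint5, of a multigene family whose close copies can share reads, fell from 382, 359 and 305 to 20.5, 11 and 134, with eKO 3 well above the other two (log2 fold change -3.42, SE 0.64, limma adjusted p = 0.0024). Tmem255a, a membrane protein, was even across the eKO libraries at 21.2, 20.8 and 21.3, against 234, 317 and 174 in control (log2 fold change -3.41, SE 0.32, limma adjusted p = 1.15e-05). Grik1, a glutamate receptor subunit best known from neurons, was even within each group, at 1887, 1669 and 1716 in control and 346, 412 and 366 in eKO (log2 fold change -2.23, SE 0.12, limma adjusted p = 9.60e-08). Cpa4, a carboxypeptidase, fell from 124, 103 and 113 to 46.2, 14.3 and 12.8. Cnksr2, a signalling scaffold, fell from 163, 108 and 126 to 34.1, 39.5 and 5.33. Their log2 fold changes were -2.41 and -2.66. The rest of these 10 were Plxna2, Tmem100, a membrane protein (log2 fold change -3.12, a call lost without control 1 and control 2 (limma adjusted p = 0.0626 and 0.0591)), and Ankfn1 (-2.69, a call lost without control 2 and control 3 (limma adjusted p = 0.0517 and 0.0555)).

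The changes that moved most normalised reads included rises of Gja1 and Sfn and falls of Slc6a6 and Sult5a1. Gja1, the gap junction protein connexin 43, stood at 12302, 12919.6 and 11585 in control and 35328, 41872 and 42644 in eKO. Sfn, the keratinocyte 14-3-3 protein, stood at 10280.0, 10800.0 and 10781 in control and 35645, 27524 and 27509 in eKO. Both were higher in every eKO library (Gja1 log2 fold change 1.70, SE 0.08, Sfn 1.498, SE 0.09, limma adjusted p = 3.54e-08 and 2.95e-07). Smaller shifts of H1f0, a linker histone of resting cells (log2 fold change 0.84, SE 0.10), and of Ubb, a polyubiquitin gene with eKO 1 at 22422, 12763 and 13328 ahead of the other two (log2 fold change 0.76, SE 0.17), also added many reads. Apoe, a lipid carrier, rose by 0.34, a call lost without control 1 (limma adjusted p = 0.0596), and mt-Cytb, a subunit of respiratory complex III, by 0.32, a call lost without control 1 (limma adjusted p = 0.0779). Among the losses, Slc6a6, the taurine transporter and one of the 10 genes with the highest control mean, stood at 37387, 37285 and 35246 in control and 21825, 23722 and 22361 in eKO. Sult5a1, a sulfotransferase, stood at 13074, 13418 and 12403 in control and 7439.8, 5876 and 5991 in eKO. Neither overlapped between the groups, with log2 fold changes of -0.70 (SE 0.06) and -1.02 (SE 0.09). Gfra1, the co-receptor for the growth factor GDNF, fell from 3319.9, 3358 and 3062 to 739.96, 973 and 937 (log2 fold change -1.89, SE 0.12, limma adjusted p = 2.85e-07). Neat1, a nuclear RNA that builds paraspeckles, Net1, which activates RhoA, Acpp, a phosphatase, and Tgm5, a transglutaminase of the epidermis, were lower without overlap, with log2 fold changes of -0.65, -0.57, -0.80 and -0.998.

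Most bulge genes did not pass the test, and Lgr5 was the clearest exception. The sort marker Cd34 stood at 1323, 1285 and 1157 in control and 1222, 1176 and 1160.02 in eKO and overlapped between the groups (log2 fold change -0.08, SE 0.10, limma adjusted p = 0.638). Itga6, which encodes the other sort marker, stood at 2047, 2121 and 2311 in control and 3290.4, 3141 and 3236 in eKO, higher in every eKO library (log2 fold change 0.58, SE 0.09, limma adjusted p = 5.10e-04). The groups overlapped for Krt15, the keratin of bulge cells, at 112171, 116724 and 114074 against 119551, 95754 and 102218, and for the bulge regulator Sox9 at 23941, 22354 and 24463 against 18777, 23029.7 and 21424. Neither passed the test (limma adjusted p = 0.292 and 0.161), nor did Nfatc1, which holds bulge cells quiet, at 4965, 4889 and 5409 against 3648, 4824 and 4148 (limma adjusted p = 0.0674). Lgr5, a receptor for R-spondins that marks the lower bulge and hair germ, was even within each group, at 7251, 7408 and 7469.5 in control and at 3978, 3867 and 3654 in eKO, and fell without overlap (log2 fold change -0.94, SE 0.07, limma adjusted p = 2.85e-06). Postn, a matrix protein, rose from 9122, 9711 and 8882 to 11383, 11512 and 13292 (log2 fold change 0.38, SE 0.08, limma adjusted p = 0.0044). Of the 23 bulge genes tested, 3 were higher and 2 lower, with a median of -0.12, with 6 lower with scaling by library size alone and 1 lower without control 1, control 2 or eKO 3. Basal keratins moved more: Krt14, at 9520.04, 10096 and 9424 in control and 25740.1, 21719.7 and 23548 in eKO, rose by 1.29 (SE 0.07) and Krt5 by 0.52 (SE 0.07). Krt24 fell from 1106, 1096 and 1022 to 566, 636 and 601 (log2 fold change -0.84, SE 0.11, limma adjusted p = 2.63e-04). In the basal keratinocyte list 4 of 12 genes were higher and 1 was lower.

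**Figure D3:**
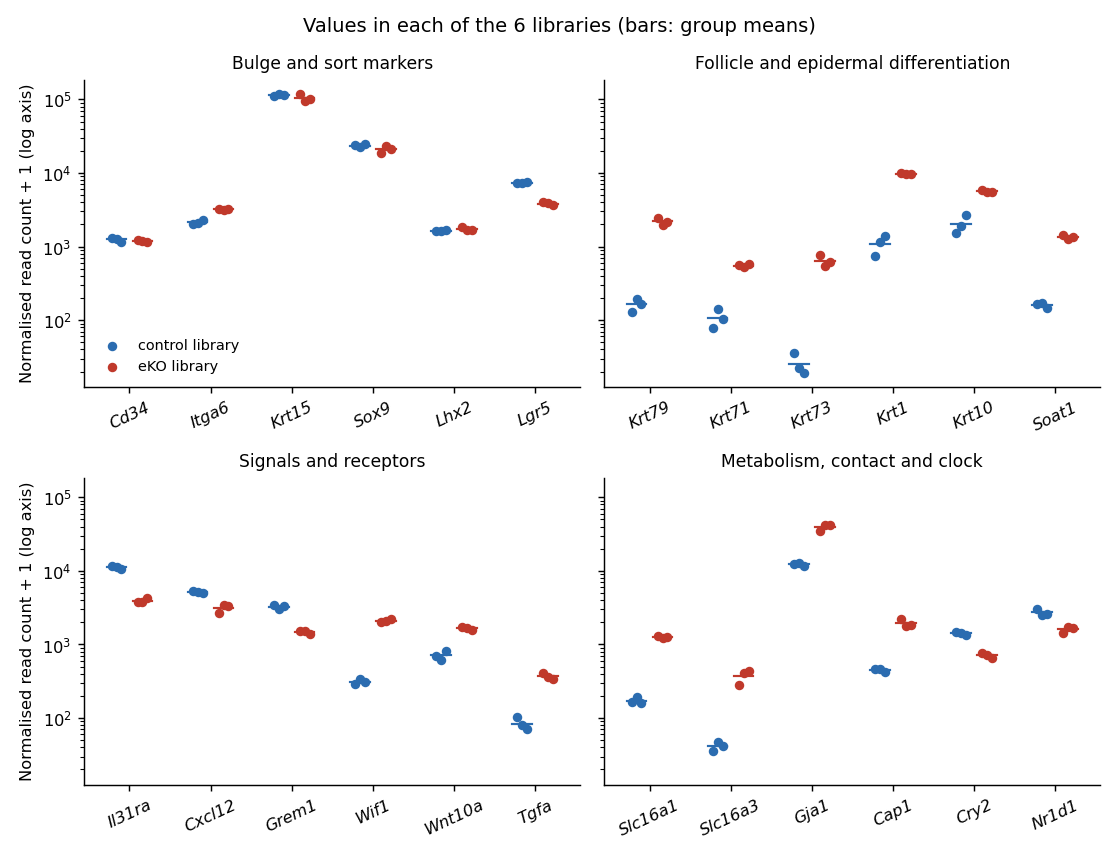
Normalised reads (log axis) in each of the 6 libraries for genes of bulge identity, differentiation, secreted signals and metabolism, 1 point per library in 4 panels. Cd34 and Krt15 overlap between control and eKO libraries, whereas Lgr5, Il31ra and Grem1 lie lower and Krt79, Krt1 and Slc16a1 higher in all 3 eKO libraries.

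Genes of the follicle and epidermal compartments around the bulge were higher in larger shares than the 10.7% of all genes. These lists were chosen with earlier results of these data known. Some members also held little in control and reached the level tested through the eKO libraries. Shares, counts and medians over tested members are therefore descriptions. In the upper follicle, 7 of 10 tested genes were higher and 1 lower (median 1.40). Krt79, a keratin of the infundibulum, stood at 129.6, 191 and 166 in control and at 2478, 1961 and 2175 in eKO. Ly6d, a surface protein, stood at 1022, 1043 and 1167 in control and 6785, 4216 and 5276 in eKO. Both lay above every control library in all 3 eKO libraries (log2 fold changes 3.77 and 2.31, SE 0.16 and 0.14). Cst6, an inhibitor of cathepsins, and Defb6, a defensin, rose by 3.18 and 3.42, and Krt17, at 4194, 4181 and 3872 in control and 8763, 9051 and 9091 in eKO, by 1.14. Lgr6, an R-spondin receptor of the isthmus, was the member that fell, from 1878, 2004 and 2027 to 1513, 1454 and 1513, with a log2 fold change of -0.40 and a call lost without control 2 (limma adjusted p = 0.052).

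**Figure D4:**
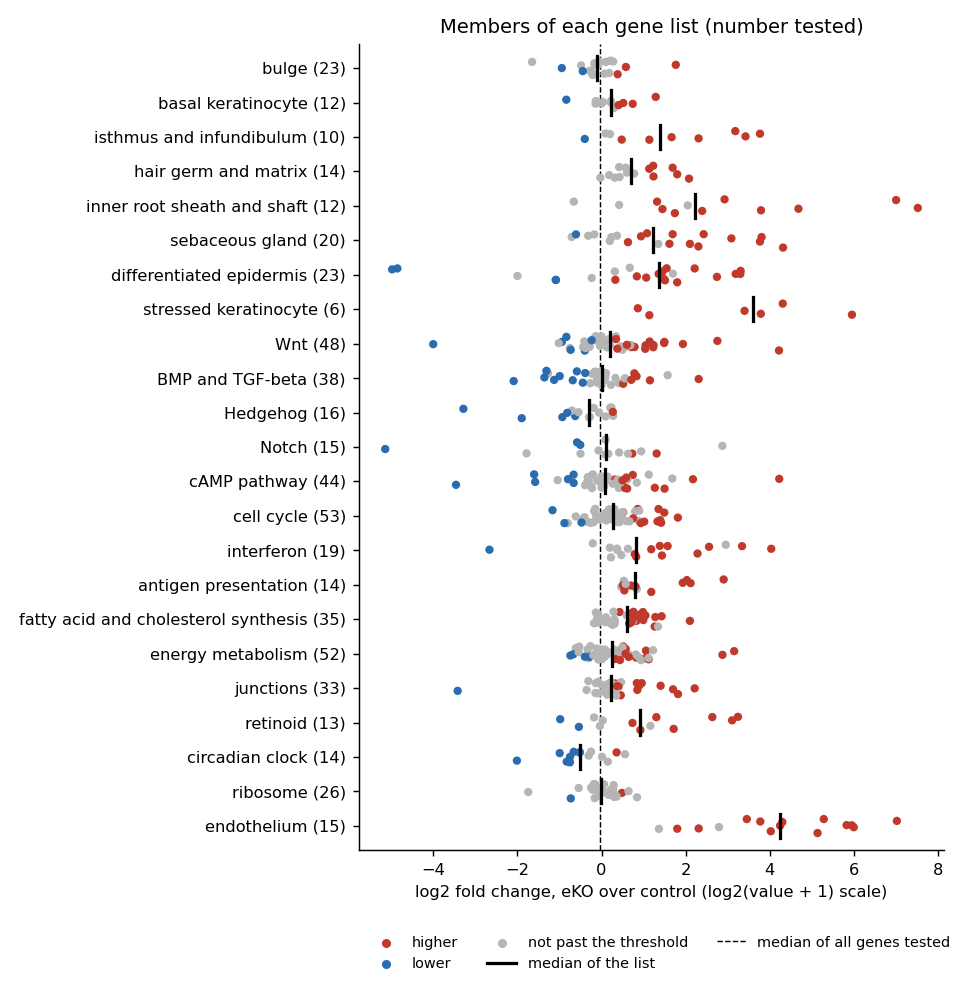
Log2 fold change, eKO over control, of each tested member of 23 gene lists (number tested in brackets); red and blue points passed the limma threshold, grey points did not, the black bar is the median of the list and the dashed line the median of all genes tested. Follicle lineage, sebaceous and endothelial lists lie to the right of the dashed line, the circadian clock list lies to its left, and the ribosome list is centred on it.

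Genes of the growing follicle were read in these sorted cells as well. In the hair germ and matrix list 6 of 14 genes were higher and 0 lower (median 0.69), led by the transcription factors Ovol1, at 122, 142 and 101 in control and 476, 390.2 and 403 in eKO (log2 fold change 1.799, SE 0.20, limma adjusted p = 4.32e-05), and Foxn1, at 6.98, 27.3 and 53 in control and 102, 116 and 75.6 in eKO, whose call was lost without control 1, control 2, eKO 1 and eKO 2 (limma adjusted p = 0.0628, 0.055, 0.0571 and 0.0696). Hoxc13, which drives hair keratin genes, stood at 208, 228 and 247 in control and 449.6, 517 and 537 in eKO and rose by 1.13 (SE 0.16). Keratins of the inner root sheath moved further, and Krt73 went from 34.9, 21 and 18 to 757, 545 and 612. Krt71 rose from 77.8, 139 and 104 to 553, 523 and 576. Their log2 fold changes were 4.68 (SE 0.28) and 2.39 (SE 0.22), with no overlap between the groups. Of 31 listed genes of inner root sheath and shaft 30 were matched and 12 tested, and 9 of these 12 were higher and 0 lower (median 2.22). Most hair shaft keratins did not reach the level tested. Ctsc, a lysosomal protease, stood at 204, 170.4 and 161 in control and 1192, 1327 and 1573 in eKO (log2 fold change 2.92, SE 0.15, limma adjusted p = 8.52e-08). In the companion layer, 4 of 6 genes were higher, with Krt75 at 53.9, 67.3 and 76 in control and 141, 156 and 145 in eKO (log2 fold change 1.16, SE 0.26, limma adjusted p = 0.00765).

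Sebaceous and epidermal genes rose together with the follicle keratins, and the cornified layer split in both directions. Of 20 sebaceous genes, 12 were higher and 1 lower (median 1.22), with 0 lower without control 1, control 2 or control 3. Scd1, which desaturates fatty acids, stood at 1805, 1816 and 1672 in control and 6779, 8625 and 7401 in eKO. Elovl3, which lengthens them, stood at 42.9, 21 and 32 in control and 569, 388 and 391 in eKO. Neither overlapped between the groups (log2 fold changes 2.10 and 3.80, SE 0.10 and 0.30). Soat1, which esterifies cholesterol, rose by 3.09 and Fabp5, a fatty acid carrier, by 4.31, but the wax and triglyceride enzymes Awat2 and Dgat2 did not pass the test (limma adjusted p = 0.427 and 0.218). In the differentiated epidermis list 14 of 23 genes were higher and 4 lower (median 1.36), 9 higher without control 2, and 2 lower without control 1, without control 2 or without eKO 1. Krt1, the keratin of suprabasal cells, stood at 749.96, 1149.7 and 1396 in control and 10018, 9555 and 9565 in eKO, and its partner Krt10 at 1529, 1898 and 2673 in control and 5871, 5561 and 5462 in eKO. All eKO libraries lay above all control libraries for both (log2 fold changes 3.19 and 1.51, SE 0.17 and 0.15), as they did for the enzymes Casp14 (log2 fold change 3.31) and Tgm3 (log2 fold change 3.30). Opposite to these, Kprp, a keratinocyte proline-rich protein, stood at 61.8, 37.9 and 53 in control and 0, 0 and 3.20 in eKO, where no library held more than 3 reads, at least 17.4-fold lower. Of 11 listed stressed keratinocyte genes 6 were tested and all 6 were higher, with a median of 3.59, or 3.22 with the 2 genes whose control libraries lay within 3 reads set to their bound. These 2 reached the level tested through the eKO libraries alone, and with a mean of 50 required 4 genes were tested and 4 higher. Among the 6, Krt16 went from 6.98, 17.9 and 21 to 234, 193 and 191 (log2 fold change 3.79, SE 0.41, limma adjusted p = 4.36e-05) and Stfa3, a cysteine protease inhibitor with close copies, from 0 in every control library to 64.4, 55.9 and 62.8, at least 20.03-fold higher.

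Wnt ligands and target genes were more often higher than lower, receptors split, and the secreted inhibitors Wif1 and Sfrp2 rose most. Over the 48 tested genes 17 were higher and 6 lower (median 0.20), with 11 higher without control 1 or control 2 and 3 lower without control 2. Of 11 ligands 4 were higher: Wnt10a, at 692, 622 and 813 in control and 1723, 1675 and 1587 in eKO, Wnt3, at 159, 185 and 157 in control and 591, 356 and 495 in eKO, and Wnt5a, at 50.9, 49.4 and 29.99 in control and 141, 187 and 168 in eKO, did not overlap between the groups, and the fourth was Wnt6, a call lost without control 2, control 3, eKO 1, eKO 2 and eKO 3 (limma adjusted p = 0.172, 0.114, 0.064, 0.0694 and 0.127). Their log2 fold changes were 1.24, 1.49, 1.93 and 1.05. Rspo3, which strengthens Wnt signals through the Lgr receptors, fell from 42.9, 32.6 and 42 to 14.4, 0 and 0, a call lost without control 1, control 2 and control 3 (limma adjusted p = 0.0794, 0.0638 and 0.0682). Receptors split, with 5 of 19 higher and 4 lower. Fzd10 rose from 154, 134 and 79 to 357, 320.1 and 318 (log2 fold change 1.49, SE 0.24, limma adjusted p = 0.00102) and Fzd6 by 0.79, whereas Fzd3 fell from 2696, 2397 and 2797 to 1394, 1434 and 1588 (log2 fold change -0.84, SE 0.10, limma adjusted p = 8.48e-05), as did Lgr5. Secreted inhibitors showed the widest separation. Wif1, which binds Wnt proteins, stood at 285, 343 and 309 in control and 2029, 2073 and 2225 in eKO. Sfrp2, a soluble Frizzled-like protein, stood at 7.98, 11.6 and 25 in control and 287, 243 and 268 in eKO. Neither overlapped between the groups (log2 fold changes 2.75 and 4.22, SE 0.12 and 0.40), and 3 of 8 inhibitors were higher and 1 lower, Dkk3, whose log2 fold change of -0.24 was a call lost without control 1, control 2, control 3 and eKO 3 (limma adjusted p = 0.151, 0.109, 0.0832 and 0.0726). Of 10 target genes 5 were higher and 0 lower. Lef1, a transcription factor of the pathway, stood at 134, 147 and 171 in control and 325, 338 and 398 in eKO and Cd44, a hyaluronan receptor, at 2878, 3053 and 3073 in control and 6183, 6629.7 and 7101 in eKO (log2 fold changes 1.23 and 1.14, SE 0.19 and 0.08). The feedback target Axin2 overlapped at 196, 206 and 232 in control and 242, 216 and 184 in eKO (limma adjusted p = 0.976).

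BMP target genes and the antagonist Grem1 were lower, while nearly all BMP and TGF-beta receptors did not pass the test. Of 38 genes 6 were higher and 9 lower (median 0.00), 5 lower without control 2. Among ligands, Gdf10 fell from 667, 533 and 606 to 125, 176 and 125 (log2 fold change -2.09, SE 0.19, limma adjusted p = 9.35e-06) and Inhbb, a subunit of activins, rose by 0.83. Of 11 receptors 1 was higher, Eng, which endothelial cells also express. Grem1, a secreted BMP antagonist, stood at 3395, 3000.1 and 3326 in control and 1526, 1517 and 1399.7 in eKO, so the groups were far apart (log2 fold change -1.13, SE 0.09, limma adjusted p = 4.22e-06). Smad6, which blocks BMP signals inside the cell, fell from 137, 145 and 175 to 101, 36.2 and 54.3, a call lost without control 2 and control 3 (limma adjusted p = 0.059 and 0.074), and Bambi, a decoy receptor, rose from 127, 128 and 99.98 to 227, 287 and 276 (log2 fold change 1.15, SE 0.21, limma adjusted p = 0.00206). Of 8 target genes 5 were lower and 2 higher. Id2, which BMP signals induce, stood at 1835, 2145 and 2098 in control and 1309, 1038 and 1460.4 in eKO and Id3 at 1159.8, 1174 and 1284 in control and 881, 711 and 822 in eKO, both without overlap (log2 fold changes -0.69 and -0.59), whereas Id4 rose from 724, 824 and 1066 to 1504, 1445 and 1482 by 0.78. Ccn1, a matrix protein that YAP also induces, fell most among the targets, from 2505, 2449 and 2548 to 865, 1083 and 1092 (log2 fold change -1.31, SE 0.11, limma adjusted p = 5.14e-06).

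Hedgehog genes were lower in 5 of 16 and higher in 1 (median -0.29). The higher one was Ccnd2, a cyclin of the G1 phase, whose log2 fold change of 0.27 was a call lost without control 1, control 2, control 3, eKO 1 and eKO 2 (limma adjusted p = 0.152, 0.109, 0.127, 0.0661 and 0.0531). Cdon, a co-receptor for Hedgehog ligands, stood at 733, 715 and 834 in control and 234, 239 and 149 in eKO, well apart (log2 fold change -1.90, SE 0.19, limma adjusted p = 2.11e-05). Hhip, a decoy for the ligands, stood at 95.7, 69.4 and 75 in control and 35.6, 14.3 and 0 in eKO and fell by 3.29 on the log2 scale, a call lost without control 1, control 2 and control 3 (limma adjusted p = 0.118, 0.097 and 0.0902). The receptor Ptch1, itself a target of the pathway, was even in control at 1249.6, 1248 and 1241 and lower in every eKO library at 902, 842 and 691, and the mediator Gli2 stood at 1489, 1311 and 1136 in control and 544, 923 and 634 in eKO (log2 fold changes -0.63 and -0.93, SE 0.12 and 0.18). Gli1, the usual readout of the pathway, stood at 247, 326 and 379 in control and 205, 257 and 133 in eKO, overlapped through eKO 2 and did not pass the test (limma adjusted p = 0.0634). Smo, which encodes Smoothened, stood at 337, 338 and 347 in control and 384, 404 and 391 in eKO (limma adjusted p = 0.346). Of 15 Notch genes 2 were higher and 3 lower, against 10.7% and 8.74% of all genes. Dlk1, a Notch-like membrane protein whose gene is imprinted, fell from 89.8, 64.2 and 99 to 0, 2.19 and 3.20, Numb, an inhibitor of Notch, from 2062, 2165 and 2096 to 1463, 1397 and 1361 (log2 fold change -0.58, SE 0.09), and the target Hes1 rose from 322, 499.7 and 753 to 1307, 1205 and 1176 (log2 fold change 1.31, SE 0.23). Dlk1 was at least 28.9-fold lower, since each eKO library held 3 reads or fewer.

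Growth factor ligands were higher in 5 of 13 and lower in 0. Tgfa, a ligand of the EGF receptor, stood at 101, 78.9 and 69.99 in control and 415, 359.5 and 341 in eKO, well apart (log2 fold change 2.16, SE 0.21, limma adjusted p = 2.08e-05), and Nrg1, a ligand of Erbb3, rose from 147, 146 and 54 to 510.2, 432 and 325 (log2 fold change 1.97, SE 0.34, limma adjusted p = 0.0013). Igf1 held 3 reads or fewer in each control library and stood at 53.8, 18.6 and 99.1 in eKO, at least 18.8-fold higher. Receptors went both ways, with 3 of 13 higher and 3 lower. Erbb3 rose from 425, 431 and 413 to 685, 687 and 753 by 0.74, Fgfr2, the receptor of keratinocyte growth factor, fell from 3519, 3167 and 3808 to 2471, 2537 and 2366 (log2 fold change -0.51), and Egfr stood at 2658, 2526 and 2372 in control and 2225, 2049 and 2378 in eKO without passing (limma adjusted p = 0.192). The other two higher receptors, Flt1 and Kdr, are endothelial, and the call for Kdr was lost without eKO 3 (limma adjusted p = 0.0623). Igfbp3 fell from 2071, 2374 and 2276 to 1348, 1127 and 1431 (log2 fold change -0.79, SE 0.11, limma adjusted p = 3.35e-04), opposite to Igfbp2. Over the 32 genes 10 were higher and 5 lower (median 0.30), and 3 were lower without control 1 or control 2.

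The kinases and arrestins of the GRK2 pathway mostly did not pass the test, and genes further along G-protein signalling went both ways. By limma 0 of the 10 tested GRK and arrestin genes were higher and 2 lower, against 10.7% and 8.74% of all genes. Control and eKO libraries were separated in 3 of these 10, against 36.3% of all genes. Both lower genes were arrestin-domain genes. Arrdc1 fell from 1213, 1108 and 1141 to 819, 819 and 675 (log2 fold change -0.59, SE 0.12, limma adjusted p = 0.00402). For Arrdc3 the log2 fold change of -0.54 was a call lost without control 1, control 2 and control 3 (limma adjusted p = 0.0579, 0.0804 and 0.0501). Of 44 cAMP pathway genes 11 were higher and 6 lower (median 0.07). These counts moved with the libraries: 7 were higher without control 2 or eKO 3, and 2 lower without control 1, control 2, control 3 or eKO 3. Rgs4, which speeds the shutdown of Gq and Gi signals, stood at 6.98, 5.26 and 7.0 in control and 161, 111 and 143 in eKO. Gnai1, an inhibitory G protein subunit, stood at 641, 801 and 1256 in control and 2021, 2231 and 1995 in eKO. Neither overlapped (log2 fold changes 4.22 and 1.27, SE 0.43 and 0.19). Adcy7, an adenylyl cyclase, rose from 18, 37.9 and 22 to 142, 128 and 83.1 (log2 fold change 2.17, SE 0.39, limma adjusted p = 0.00184), while Adcy6 fell from 81.8, 118 and 88 to 29.6, 47.1 and 20.2, a call lost without control 2 (limma adjusted p = 0.073). Dusp1, a phosphatase that CREB and stress signals induce, fell from 3018, 3074 and 3111 to 1929, 1646 and 1727 (log2 fold change -0.80, SE 0.09, limma adjusted p = 6.36e-05). Of 19 receptors of the skin 3 were higher and 0 lower, namely the sphingosine phosphate receptors S1pr1, at 0.997, 16.8 and 0 in control and 183, 107 and 226 in eKO (log2 fold change 5.65, SE 0.86), and S1pr3, at 185, 211 and 191 in control and 537, 673 and 558 in eKO (log2 fold change 1.58, SE 0.16), and the melanocortin receptor Mc5r of sebocytes, at 21.9, 37.9 and 21 in control and 214, 125 and 112 in eKO (log2 fold change 2.43, SE 0.37). S1pr1 is also an endothelial gene. Of the 19, 1 was lower without eKO 1 or eKO 2, with library size alone or with the replicate block.

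The cytokine receptor Il31ra and the chemokine Cxcl12 fell, while interferon-induced and antigen presentation genes mostly rose. Il31ra, the receptor for the itch cytokine interleukin 31, was among the 10 largest losses of normalised reads, at 11822, 11421 and 10656 in control and 3793, 3720.4 and 4257 in eKO, with a tight spread in each group (log2 fold change -1.53, SE 0.08, limma adjusted p = 8.27e-08). Cxcl12, a chemokine that holds leukocytes and progenitors in place, fell from 5279, 5142 and 5020.01 to 2707, 3390.5 and 3314 (log2 fold change -0.72, SE 0.09, limma adjusted p = 1.96e-04). Il20ra, an interleukin 20 receptor chain, fell from 305, 319.8 and 256 to 113, 84.4 and 131 (log2 fold change -1.43, SE 0.22, limma adjusted p = 6.87e-04). Ccl20, which attracts dendritic and T cells, was listed at 0, 0 and 2.0 in control and at 81.9, 50.4 and 67.1 in eKO, at least 21.8-fold higher. Il1f9, an interleukin 36 cytokine, rose from 13, 7.36 and 2.0 to 207, 174 and 182. Il1rn, the interleukin 1 receptor antagonist, rose from 399.9, 492 and 382 to 1523, 1725 and 1791, both without overlap (log2 fold changes 4.74 and 1.99, SE 0.53 and 0.13). Of 9 chemokines 5 were higher and 1 lower, with 2 higher without control 2 and 3 without control 3, eKO 2 or eKO 3, with library size alone or with a mean of 50 required. Of 21 cytokine genes 10 were higher and 2 lower, with 6 higher without control 1. Antigen presentation genes were higher in 10 of 14 and lower in 0 (median 0.80). The class I gene H2-D1 stood at 6147, 6156 and 6649.7 in control and 15952, 13653 and 13491 in eKO and the class II chain Cd74 at 122, 158 and 138 in control and 1442, 787 and 996 in eKO, where eKO 1 was highest (log2 fold changes 1.18 and 2.90, SE 0.08 and 0.21). Close copies of class I genes can share reads. Among 19 interferon-induced genes 10 were higher and 1 lower (median 0.82). Oas1a rose from 1.99, 10.5 and 0 to 55.3, 96.5 and 26.6 and Rtp4 from 12, 11.6 and 7.0 to 137, 86.6 and 111. Usp18, which damps the interferon receptor, fell from 86.8, 89.4 and 96 to 22, 19.7 and 5.33, each without overlap (log2 fold changes 4.03, 3.34 and -2.67).

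Several genes of mitosis rose in the eKO cells. Of 20 mitotic genes 7 were higher and 0 lower (median 0.59), and of 17 replication genes 2 were higher and 0 lower (median 0.10). Mki67, read in cycling cells, stood at 326, 354 and 298 in control and 812, 802 and 889 in eKO. Ccnb2, a mitotic cyclin, stood at 51.9, 68.4 and 35 in control and 155, 136 and 136 in eKO. Neither overlapped (log2 fold changes 1.35 and 1.49, SE 0.13 and 0.31). Over the 53 cell cycle genes 11 were higher, but 6, 4, 5 and 7 without control 1, control 2, control 3 and eKO 1, and 7 with no filter on low values. Cdkn1a, the p21 inhibitor, rose as well, from 294, 305 and 291 to 1012, 602 and 784 (log2 fold change 1.39, SE 0.18, limma adjusted p = 1.52e-04). Phlda3, a target of p53, rose from 2329, 2556 and 2982 to 5091, 4046 and 4121 (log2 fold change 0.75, SE 0.11, limma adjusted p = 5.34e-04). Rbl2, a pocket protein of resting cells, fell from 293, 265 and 256 to 159, 146 and 135 (log2 fold change -0.88, SE 0.19, limma adjusted p = 0.00562). Immediate early genes went both ways, since 5 of 20 were higher and 4 lower, 2 lower without control 1 or control 2. Egr2 rose from 413, 442 and 429 to 844, 985 and 713 and Junb by 0.62, and Jun fell from 3078, 2706 and 2768 to 1668, 2219.8 and 1587 (log2 fold changes 0.97 and -0.66, SE 0.14 and 0.12). In the heat shock and endoplasmic reticulum list 10 of 22 were higher and 1 lower, led by Herpud1, which helps clear misfolded proteins, at 489, 511 and 616 in control and 1556, 1245 and 1292 in eKO (log2 fold change 1.34, SE 0.13, limma adjusted p = 2.10e-05), and Hspa5, the main chaperone of that compartment, at 3218, 3476 and 3057 in control and 5484, 5707 and 5884 in eKO (log2 fold change 0.81, SE 0.08). Of 16 oxidative stress genes 1 was higher, Txnrd1, at 167, 195 and 181 in control and 456, 409 and 398 in eKO (log2 fold change 1.22, SE 0.17).

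The lactate carriers showed the largest rises among the 52 genes of energy metabolism tested. Slc16a1, which carries lactate and pyruvate, stood at 164, 192 and 158 in control and 1312, 1220.05 and 1244 in eKO. Slc16a3, which exports lactate, stood at 34.9, 46.3 and 41 in control and 277, 412 and 436 in eKO. All eKO libraries lay several times above all control libraries (log2 fold changes 2.87 and 3.15, SE 0.14 and 0.26, limma adjusted p = 4.67e-08 and 4.32e-06). The enzymes on either side rose less: Ldha, which makes lactate, stood at 973, 1013 and 1093 in control and 2443, 2021 and 2248 in eKO (log2 fold change 1.12, SE 0.11) and Pkm, which makes pyruvate, at 980.3, 939 and 1081 in control and 2431, 1856 and 1991 in eKO (log2 fold change 1.06, SE 0.12). Ldhb, the form that favours pyruvate, fell from 317, 303 and 294 to 146, 223 and 184, a call lost without control 1, control 2 and control 3 (limma adjusted p = 0.0796, 0.0695 and 0.0541). Of 23 glycolysis and lactate genes 8 were higher and 2 lower, against 5 and 0 of 19 nuclear respiratory chain genes and 1 and 2 of 10 mitochondrial transcripts. Over these 52 genes 14 were higher and 4 lower, with 9 higher without control 1 and 1, 0, 0, 2 and 2 lower without control 1, control 2, control 3, eKO 2 and eKO 3, and 2 lower with no filter. Sterol and fatty acid enzymes rose with none lower, in 16 of 35 (median 0.60). Sqle, which starts the sterol ring, stood at 489, 377 and 368 in control and 998, 919 and 1024 in eKO (log2 fold change 1.26, SE 0.14) and Acly, which supplies acetyl-CoA, at 645, 683 and 682 in control and 1113, 1301 and 1295 in eKO (log2 fold change 0.88, SE 0.11), while the regulator Srebf1 did not pass the test (limma adjusted p = 0.663). Retinoid genes were higher in 7 of 13 and lower in 2 (median 0.92), with 4 higher when a mean of 50 was required and 1 lower without control 1 or control 2. Stra6, which takes up retinol, rose from 16, 9.47 and 8.0 to 133, 138 and 71.4. Aldh1a3, which makes retinoic acid, rose from 14, 28.4 and 17 to 146, 183 and 185, both without overlap (log2 fold changes 3.24 and 3.10, SE 0.45 and 0.36). Rarg, a retinoic acid receptor, fell from 3594, 2961 and 3358 to 2225, 2453 and 2136 (log2 fold change -0.54, SE 0.10). Of 26 ribosomal protein genes 1 was higher and 1 lower, with a median of -0.01. Neither call held without control 1, control 2, control 3 or eKO 1, the lower one was also lost without eKO 3, and 3 were higher without eKO 2.

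Several gap junction and desmosome genes rose, while E-cadherin did not pass the test. Of 33 junction genes 12 were higher and 1 lower (median 0.22). The lower one was Cldn23, a claudin of tight junctions, at 18.9, 33.7 and 29.99 in control and 0, 16.4 and 0 in eKO. Its call was lost without control 1, control 2, control 3, eKO 1 and eKO 3 (limma adjusted p = 0.11, 0.164, 0.137, 0.0902 and 0.103). It was also lost with a pseudocount of 0.5, no filter, edgeR or DESeq2. Gjb2, connexin 26, stood at 1308, 1402 and 1209.8 in control and 4171, 4916 and 4748 in eKO, the same direction as Gja1, and Gjb6 rose by 1.40. Gjb2 did not overlap between the groups (log2 fold change 1.82, SE 0.10, limma adjusted p = 9.60e-08). Pkp1, a plakophilin of desmosomes, rose from 3751, 3274 and 3284 to 6081, 6737 and 6338 (log2 fold change 0.90, SE 0.08, limma adjusted p = 1.28e-05) and Dsp, desmoplakin, by 0.40, while Cdh1, E-cadherin, stood at 5201, 4882 and 5041 in control and 4560.3, 4883 and 4317 in eKO (limma adjusted p = 0.249). In the cytoskeleton, Cap1, an actin-recycling protein, stood at 462, 468 and 417 in control and 2195, 1797 and 1839.6 in eKO, far apart (log2 fold change 2.11, SE 0.12, limma adjusted p = 1.51e-07), and Actb rose from 3850.5, 4109 and 4859 to 13091, 7432 and 9012, highest in eKO 1 (log2 fold change 1.17, SE 0.16, limma adjusted p = 2.76e-04). Tead1, a partner of YAP, fell from 668, 584 and 688 to 437, 423 and 408 (log2 fold change -0.61, SE 0.13, limma adjusted p = 0.00644). Of 38 integrin and basement membrane genes 7 were higher and 4 lower, against 10.7% and 8.74% of all genes. Fras1, a protein of the basement membrane, rose from 41.9, 22.1 and 24 to 262, 218 and 206, without overlap (log2 fold change 2.97, SE 0.32). Lamb3, a laminin 332 chain, fell from 3347, 3292 and 3179 to 2063, 2231 and 2073 (log2 fold change -0.63, SE 0.08). Itga2, a collagen receptor chain, fell from 318, 298 and 311 to 191, 124 and 126 (log2 fold change -1.10, SE 0.21), and Spock1, a proteoglycan, from 89.8, 59.96 and 121 to 5.31, 0 and 0 (log2 fold change -5.57, SE 0.82). Among collagens 3 of 13 were higher and 2 lower, 4 lower with library size alone or with the replicate block, 0 without control 1 or control 2 and 1 without control 3. Col12a1 rose from 545, 631 and 509.9 to 1077, 1093 and 1076 (log2 fold change 0.95, SE 0.12).

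Among axon guidance genes Plxna2 fell and the receptors Robo1 and Robo2 rose. Plxna2, a semaphorin receptor, stood at 2103, 2142 and 2148 in control and at 411, 411 and 485 in eKO, tight within each group (log2 fold change -2.29, SE 0.11, limma adjusted p = 4.67e-08). Robo2 and Robo1, receptors for Slit proteins, rose from 517, 551 and 593 to 1000.01, 1359 and 1249.5 and from 353, 337 and 261 to 763, 705 and 879, without overlap (log2 fold changes 1.11 and 1.31, SE 0.14 and 0.16). The ligand Slit3 fell from 416, 463 and 401 to 162, 213 and 321, with eKO 3 nearest to the controls, a call lost without control 2 (limma adjusted p = 0.0602). Sema6a, a membrane semaphorin, rose from 169.5, 139.9 and 136 to 434, 511 and 402 (log2 fold change 1.59, SE 0.18), while Efna5, an ephrin and the member with the highest value, stood at 16510.0, 15859 and 15779.9 in control and 15678, 13257 and 14064 in eKO (limma adjusted p = 0.133). Of 39 genes 11 were higher and 3 lower (median 0.10), with 6 higher without control 1, control 2 or control 3. The count was 7 higher with library size alone, 5 lower without eKO 1 and 1 lower without control 2.

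Circadian clock genes were lower in 8 of 14 tested, against 8.74% of all genes, and higher in 1 (median -0.52). In the clock the factors Clock, Npas2 and Arntl switch on the Per, Cry and Nr1d genes through E-boxes, and the products of those genes shut the factors down again. Npas2 stood at 226, 149 and 199 in control and 37.9, 88.8 and 28.8 in eKO (log2 fold change -2.01, SE 0.38, limma adjusted p = 0.00259), while Clock and Arntl did not pass the test (limma adjusted p = 0.25 and 0.443). The repressor Cry2 was even within each group, at 1497, 1437 and 1341 in control and 774, 725 and 648 in eKO, and fell without overlap (log2 fold change -0.995, SE 0.11, limma adjusted p = 6.22e-05). Nr1d1, which represses Arntl, stood at 2997, 2536 and 2624 in control and 1451, 1737 and 1653 in eKO. Per2 stood at 939, 837 and 689 in control and 403, 497 and 568 in eKO, both lower in every eKO library (log2 fold changes -0.75 and -0.75, SE 0.10 and 0.16). The output factors Hlf, at 1095, 1147 and 1009.8 in control and 525, 769.5 and 560.3 in eKO, and Tef, at 3395, 3303 and 3455 in control and 2325, 2576 and 2188 in eKO, were both lower, with log2 fold changes of -0.83 and -0.52. The third of this family, Dbp, stood at 284, 494 and 1059.8 in control and 997, 739.9 and 647 in eKO and did not pass (limma adjusted p = 0.286). Per1 fell by 0.66, a call lost without control 1, control 3 and eKO 3 (limma adjusted p = 0.114, 0.0902 and 0.0675). Nr1d2 fell by 0.52, a call lost without control 1 and control 2 (limma adjusted p = 0.0671 and 0.104), and Bhlhe40 rose by 0.36, a call lost without control 1, control 2, control 3 and eKO 2 (limma adjusted p = 0.115, 0.0637, 0.132 and 0.0987). The time of day at which cells were collected is not given in the sources used here.

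E-boxes were looked for because the clock acts through them. The motif searched was CACGTG, the same on both strands, in RefSeq promoters of the build GRCm38.p6, each 300 bases from 250 before to 50 after a start. It was found in 7.15% of all 32851 promoters. Of the 8 lower clock genes 7 were in the table, with 9 promoters, and 3 promoters of 2 of these genes, Per1 and Tef, held the motif. Of the other clock genes tested 5 were in the table, and 2 of these, Cry1 and Bhlhe41, held it too. A match is a description of the letters and not a site of binding. The sequences are written 5′ to 3′ on the strand of the gene, with the motif in capitals, at positions -166, -127 and -138 from the start.
Per1, chr11:69098699-69098998, plus strand: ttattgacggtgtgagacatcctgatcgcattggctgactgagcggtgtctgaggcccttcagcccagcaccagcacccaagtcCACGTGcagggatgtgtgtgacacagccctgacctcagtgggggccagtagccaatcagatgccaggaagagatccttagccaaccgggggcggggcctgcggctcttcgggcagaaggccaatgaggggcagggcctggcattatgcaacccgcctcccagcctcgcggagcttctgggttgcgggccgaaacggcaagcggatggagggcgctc
Tef, chr15:81802423-81802722, plus strand: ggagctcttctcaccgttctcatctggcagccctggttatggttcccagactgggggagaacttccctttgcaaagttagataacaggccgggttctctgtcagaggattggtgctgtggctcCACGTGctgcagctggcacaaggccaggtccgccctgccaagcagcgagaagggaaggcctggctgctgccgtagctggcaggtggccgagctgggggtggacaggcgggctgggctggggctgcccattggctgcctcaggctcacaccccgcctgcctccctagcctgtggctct
Tef, chr15:81811164-81811463, plus strand: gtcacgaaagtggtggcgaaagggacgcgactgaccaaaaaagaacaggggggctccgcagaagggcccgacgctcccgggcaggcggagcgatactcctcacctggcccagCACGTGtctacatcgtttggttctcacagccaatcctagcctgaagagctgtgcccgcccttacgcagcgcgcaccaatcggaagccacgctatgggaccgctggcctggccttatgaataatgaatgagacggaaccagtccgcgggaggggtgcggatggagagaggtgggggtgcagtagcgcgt

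Markers of cells other than keratinocytes were read in these sorted cells, and those of blood vessels differed most by genotype. Of 15 endothelial genes tested of 22 listed, 13 were higher and 0 lower in eKO (median 4.24, or 3.77 with the 4 genes whose control libraries lay within 3 reads set to their bound), and 8 were higher when a mean of 50 was required. Most of them reached the level tested through the eKO libraries alone, so this count is a description. Plvap, a protein of vessel walls, stood at 5.98, 5.26 and 9.0 in control and 434, 532 and 489 in eKO (log2 fold change 6.00, SE 0.33, limma adjusted p = 1.23e-07), and Pecam1, which joins endothelial cells, at 6.98, 7.36 and 34 in control and 289.6, 191 and 284 in eKO (log2 fold change 4.24, SE 0.51, limma adjusted p = 9.88e-05). Both were read in the controls at a small share of their eKO level. Cdh5, the cadherin of endothelium, rose from 8.98, 0 and 1.0 to 101, 73.4 and 154 (log2 fold change 5.28, SE 0.80) and Ptprb, its partner phosphatase, from 6.98, 0 and 6.0 to 240.3, 224 and 243 (log2 fold change 5.95, SE 0.69). Aqp1, a water channel, rose from 22.9, 4.21 and 4.0 to 1574, 1597 and 1358 (log2 fold change 7.46, SE 0.48). Vwf, the clotting protein of endothelium, was at 0 in every control library and at 119.8, 121 and 148 in eKO, at least 42.5-fold higher. The 22 genes together summed to between 101 and 173 normalised reads in the control libraries and between 1885 and 2042 in the eKO libraries. The endothelial gene Cldn5 was at 0 in all 6 stem cell libraries, where the 10 skin libraries ranged from 218 to 759. Sox18 was at 0 in the control and at 2.27, 2.19 and 1.07 in the eKO stem cell libraries, against 131 to 372 in skin. Some members lay nearer to skin, with a highest stem cell value of 532 for Plvap, where skin ranged from 531 to 1044. For Vwf and Pecam1 the highest values were 148 and 290, against 262 to 502 and 1002 to 2138 in skin. The tables of stem cells and skin were normalised separately. CD34 and α6-integrin, the sort markers, are both also found on endothelial cells. The part of such cells in the other differences was not tested, and in bulk RNA fewer cells of a type and less RNA per cell cannot be told apart.

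**Figure D5:**
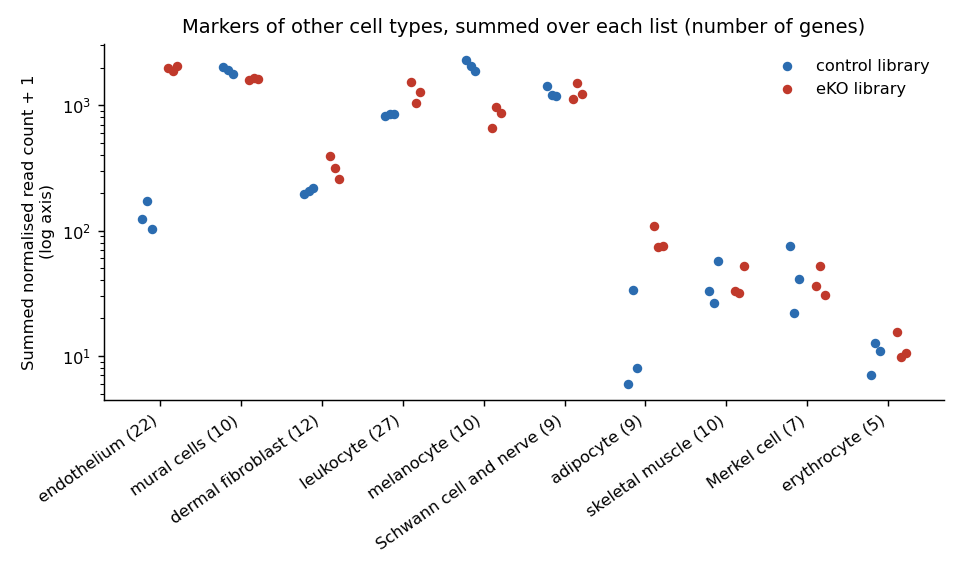
Summed normalised reads (log axis) of the marker genes of 10 other cell types in each of the 6 libraries, 1 point per library. The endothelial sum is 1885 to 2042 in eKO against 101 to 173 in control libraries, the melanocyte sum, mostly Mitf, is lower in eKO, and the skeletal muscle and Schwann cell sums overlap.

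The sums of the other marker lists differed by smaller ratios or overlapped. Fibroblast markers summed to 193, 204 and 217 in control and 396, 312 and 258 in eKO, with Col3a1, Lum and Dpt at or near 0, and 2 of 5 tested genes were higher, Thy1, at 33.9, 33.7 and 35 in control and 209, 206 and 145 in eKO (log2 fold change 2.40, SE 0.29), and Dcn, at least 8.37-fold higher at 28.1, 19.7 and 28.8. Mural cell markers summed to 1766 to 2012 in control and 1578 to 1640 in eKO, mostly Cspg4, which keratinocyte stem cells also express (log2 fold change -0.33, a call lost without control 1, control 2 and eKO 3 (limma adjusted p = 0.153, 0.112 and 0.0693)), while Rgs5, Myh11 and Pdgfrb were at or near 0. Leukocyte markers summed to 821 to 856 in control and 1035 to 1541 in eKO, mostly Epcam, which keratinocytes express, and the pan-leukocyte gene Ptprc stood at 19.9, 14.7 and 9.998 in control and 28.1, 18.6 and 3.20 in eKO (limma adjusted p = 0.888). Of the 8 leukocyte genes tested 1, Epcam, was higher and 1, Lyz2, lower, the latter a call lost without control 1, control 2, control 3 and eKO 3 (limma adjusted p = 0.118, 0.113, 0.114 and 0.0514). Dermal papilla markers summed to 125 to 169 in control and 368 to 411 in eKO, with Prdm1, Crabp1 and Wnt5a higher and Rspo3 lower. Sox2 was at 0 in all 6 libraries but also in all 10 skin libraries, so its 0 does not show absence. Melanocyte markers summed to 1888 to 2288 in control and 661 to 959 in eKO, mostly Mitf, which fell from 2078, 1769 and 1669.7 to 448, 780.5 and 697 (log2 fold change -1.55, SE 0.18, limma adjusted p = 6.32e-05). Of the 5 melanocyte genes tested Mitf alone was lower and 4 did not pass the test (median -0.10). In the other fits 1 to 2 were lower. Adipocyte markers summed to 5.0 to 32.6 in control and 72.3 to 108 in eKO, with Adipoq at 0 in all 6 libraries. Of the 9 listed 2 were tested and 2 were higher (median 3.64), with 0 higher without eKO 1 and 1 without eKO 3. Arrector pili muscle markers summed to 727 to 919 in control and 997 to 1129 in eKO, mostly Smtn, at 593 to 1032 over the 6 libraries. Of the 5 tested 1 was higher and 1 lower, with 0 lower without control 1, control 2, control 3 or eKO 2. The sums overlapped for Schwann cell, skeletal muscle, Merkel cell and erythrocyte markers.

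The 4 Y-linked genes tested were all lower in eKO. Ddx3y stood at 1216, 1186 and 1176 in control and 359, 434 and 409 in eKO, Uty at 509, 547 and 489 in control and 133, 125 and 184 in eKO, Kdm5d at 220.4, 284 and 273 in control and 74.3, 50.4 and 59.7 in eKO. Eif2s3y stood at 395, 459.7 and 422 in control and 136, 207 and 178 in eKO. Every eKO library was below every control library for each gene, with log2 fold changes of -1.57, -1.82, -2.07 and -1.30. Of their X-linked partners, Ddx3x rose from 1098, 1217 and 1309 to 1634, 1734 and 1955 (log2 fold change 0.55, SE 0.11, limma adjusted p = 0.00355). Xist was listed at 0 in all libraries. In skin each of the 4 Y-linked genes also had a lowest value of 0 over the 10 libraries. A value of 0 for Xist therefore does not tell the sex here. The level of these 4 transcripts moved with genotype in these 6 libraries. The sex of the mice is not given in the sources used here, and its part in the other results was not tested.

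Whether the stem cells differed from whole skin in their response was tested in 1 limma fit over the 13227 genes read in both. The effect of eKO differed between the tissues at an adjusted p of 0.05 in 743 genes, 5.62% of those tested, and 645 of these were also called in the stem cells. In 455 genes the effect was more positive and in 288 more negative in stem cells, and 0 of the 743 genes were called in both tissues with opposite signs. Slc16a1 rose by 2.87 in stem cells and stood at 0.46 in skin, a difference of 2.42 (limma adjusted p = 3.97e-04), and Sfrp2 at 4.22 against -0.05 (difference 4.27, limma adjusted p = 6.16e-04). For Cap1 the effects were 2.11 and 0.11, and for Rgs4 4.22 and 0.36, with differences of 2.00 and 3.87 (limma adjusted p = 5.28e-07 and 3.58e-04). Gfra1 fell by 1.89 in stem cells against an effect of 0.00 in skin (difference -1.89, limma adjusted p = 7.32e-04), and Mitf stood at -1.55 against 0.21 (difference -1.77, limma adjusted p = 0.00256). For Cxcl12 and Grem1, which fell in stem cells, the skin estimates were 0.98 and 0.22, and the differences were -1.71 and -1.35 (limma adjusted p = 0.015 and 0.035). No difference between the tissues passed the test for Krt17, at 1.14 and 1.07 (limma adjusted p = 0.933), for Gjb2, at 1.82 and 1.43 (limma adjusted p = 0.898), or for Plxna2, at -2.29 and -1.44 (limma adjusted p = 0.12). The 2 tables were normalised separately, the labelled ages differ (18 months in stem cells, 8 months in skin), and skin holds many cell types. The part of these in the differences was not tested.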

How the data were processed

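The values the authors deposited, 1 table for the 6 stem cell libraries and 1 for the 10 skin libraries, are a signal normalised by dividing gene read counts by 1 factor per library. This was read from the values, since 100% of values came back as whole reads within 0.01. The genome build GRCm39 is given in the submitters' processing notes, and the aligner, counter and annotation are not given in the sources used here, nor is whether reads were counted by strand. Genes that reached 10 in 3 libraries were tested by limma 3.58.1 (R 4.3.3) with a trended prior on log2(value + 1), with Benjamini-Hochberg adjustment over all of them, and fold changes on this scale understate changes of low genes. Recovered reads were tested with edgeR 4.0.16 and DESeq2 1.42.0 as alternatives, and the code was tested on simulated data. Other alternatives were pseudocounts of 0.5 and 5, no filter, a mean of at least 50, scaling by library size alone, a replicate block and leaving out each library. The difference from skin was fitted in 1 limma model of 4 group means. "At least" folds set a group with 3 reads or fewer in every library to the floor of 3 reads per library. Genes and lists were chosen with earlier results of these data known. Named were Grk2, Cd34, Itga6, the 10 largest called rises and falls with a mean of at least 100 in the higher group, the 10 largest gains and losses of reads, the 10 highest genes of each group, and for each list and role the 2 largest called rises, the 2 largest called falls and the member with the highest mean. Except in the lists, predicted genes and clone names (Gm, Rik and the like) were left out. Outside this rule, chosen after their values were seen, are Itgb6, Acly, Arntl, Awat2, Axin2, B2m, Bhlhe41, Cdh1, Clock, Col12a1, Cry1, Cst6, Dbp, Dgat2, Egfr, Erbb3, Gjb6, Gli1, Gnai1, Hlf, Hoxc13, Hspa5, Id3, Jun, Krt10, Krt71, Krt75, Ly6d, Nfatc1, Nr1d1, Nr1d2, Nrg1, Per2, Pkm, Ptch1, Robo1, Robo2, S1pr3, Sema6a, Smo, Srebf1 and Wnt6. Some list members, though counted, are not reported here by name. Near-identical genes can share reads.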

Additional observations from a re-analysis of the deposited data

Results flagged for a closer look

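The effect of eKO in the sorted stem cells differed from its effect in whole skin for 65 of the 206 genes named in the text and tested in both tissues, by a limma test of the difference itself at an adjusted p of 0.05. Of the 208 named genes tested in stem cells 188 were called there, and most were named for that reason. The count of 65 is therefore a description, beside 5.62% of all 13227 genes tested in both tissues. Values in brackets are the log2 fold change in stem cells minus that in skin. Among genes of endothelium the difference was above 0 for Vwf (6.77), Plvap (5.71), Ptprb (5.97), Cdh5 (4.96), Pecam1 (4.17), Aqp1 (7.36), S1pr1 (5.42), Kdr (3.80), Flt1 (2.87) and Eng (1.92). Secreted factors and their inhibitors also moved further up in stem cells, as seen for Cytl1 (7.56), Igfbp2 (7.06), Lrg1 (6.05), Igf1 (4.05), Il1f9 (4.06), Ccl20 (2.65), Tgfa (1.95), Il1rn (1.52), Sfrp2 (4.27), Wnt3 (1.68), Wnt10a (1.34) and Wnt6 (1.27). Follicle and sebaceous genes above 0 were Fabp5 (3.16), Defb6 (2.56), Ctsc (2.35), Elovl3 (2.13), Krt79 (2.06), Ly6d (1.77), Soat1 (1.73) and Cst6 (1.47). The other differences above 0 were those of B3gnt3 (5.47), Cap1 (2.00), Cd74 (2.48), Cdkn1a (1.17), Dcn (3.62), Erbb3 (0.70), Fzd10 (1.72), Herpud1 (1.19), Itga6 (1.02), Itga8 (4.61), Rgs4 (3.87), Robo1 (1.39), Rtp4 (3.00), Slc16a1 (2.42), Slc16a3 (2.74), Sqle (0.92), Thy1 (1.68) and Txnrd1 (1.39). Differences below 0 were found for Cdon (-1.59), Cpa4 (-3.06), Cxcl12 (-1.71), Flg2 (-4.64), Gfra1 (-1.89), Grem1 (-1.35), Id2 (-0.88), Jun (-0.96), Kprp (-5.16), Lyz2 (-3.38), Mitf (-1.77), Pcolce2 (-4.49), Rarg (-0.59), Sgce (-1.85), Slit3 (-1.08), Spock1 (-5.59) and Tmem255a (-3.28). For Wnt6 and Thy1 the call held in 2 of 4 ways of testing the difference, and for Ccl20, Erbb3 and Sqle in 3 of 4. Values for B3gnt3, Ccl20, Cytl1, Dcn, Igf1, Itga8, Igfbp2, Kprp and Vwf depend on the pseudocount, since 1 group of stem cell libraries held 3 reads or fewer. Skin and stem cells differ in labelled age, in cell makeup and in the table they were normalised in, and the part of these in the differences was not tested.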

How the results depend on the processing

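The fits tested 13784 genes, except 21521 with no filter and 10755 with a mean of at least 50 required. In them 2424 to 3016 genes passed under another pseudocount, filter, scaling or tool, and 1540 to 2643 when 1 library was left out. Lower genes numbered 537 to 1276 and higher genes 999 to 1373 in these leave-one-out fits, with the lowest counts without control 1 or control 2. Scaling by library size alone turned the split round, with 1271 higher and 1537 lower (45.3% higher, against 54.9%), and moved the median of all genes to -0.097. Replicate numbers did not pair the libraries: same-numbered control and eKO libraries correlated at -0.06, -0.018 and -0.026 in their deviations from the group means, and with the replicate block 2696 genes passed, 2502 of them shared. The count for the difference between tissues rose from 743 to 1448 when each tissue kept its own standard error, and the cause was not tested. Of 188 named calls 165 held in every leave-one-out fit and 177 under every other setting. The exceptions there were Apoe and mt-Cytb (no filter), Tmem100 (DESeq2), Rspo3 (edgeR), Lyz2, Bhlhe40, Dkk3, Ccnd2, Hhip, Wnt6 and Cldn23 (2 to 4 settings each). Among the named genes, signs turned for 3 that had not passed the test, and the log2 fold changes were as follows for Axin2 (-0.057 with scaling by library size alone, -0.04 without control 1, -0.005 without control 2, -0.081 without eKO 1, range -0.081 to 0.115 with 1 library left out), Cry1 (-0.057 with scaling by library size alone, -0.051 without control 1, -0.152 without eKO 1, range -0.152 to 0.167 with 1 library left out) and Ptprc (0.185 by edgeR, 0.174 by DESeq2, 0.024 without control 1, 0.637 without eKO 3, range -0.759 to 0.637 with 1 library left out). Whether a difference under the floor of 3 reads exists cannot be read at this depth.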

Other observations

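Imprinted growth genes were lower in 2 of 11 and higher in 0 by limma (1 lower with a mean of 50 required), and besides Dlk1 the lower one was Sgce, a sarcoglycan, at 213, 243 and 242 in control and 87.9, 80.02 and 67.1 in eKO (log2 fold change -1.56, SE 0.23, limma adjusted p = 3.97e-04). Among integrins, Itgb6, which activates TGF-beta, rose from 1185, 1193 and 1143 to 1543, 1526 and 1775 (log2 fold change 0.46, SE 0.10, limma adjusted p = 0.00772), and Itga8, best known from smooth muscle, was at least 14.3-fold higher at 40.2, 30.7 and 59.7.

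Some genes that most cells express were listed at very low values. Gapdh ranged from 9.86 to 32.9 normalised reads in the stem cell libraries and from 117 to 252 in skin, and the mitochondrial gene mt-Co2 from 0 to 4.2 and from 80.9 to 194.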
